A study of Mus musculus with 6 samples.

Results

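The regions described here are stretches of the C2C12 genome that carried an H3K27ac peak after 72 h of differentiation and none in proliferating cells or after 36 h. They were found by merging the 3 deposited H3K27ac peak lists wherever peaks overlapped by at least 1 bp, and keeping the merged regions with a peak in the 72 h list alone. The members were thus chosen by the authors' peak calls in the 3 libraries, and so by signal over background at each stage. Of 112926 merged regions, 26999 met this rule, and they are called 72 h only regions below. C2C12 is a mouse myoblast line that fuses into myotubes in culture, and its study here concerns what TAp63, an isoform of the transcription factor p63, does in myogenesis. The 3 groups used here differ in stage alone by their labels, which name no allele or agent, and are proliferation, 36h differentiation and 72h differentiation. Each had 1 H3K27ac library, made from DNA pooled over 4 ChIP assays, so the spread between cultures was not measured and no test between stages could be made. The chromatin came from whole cultures, in which more cells carrying the mark and more of the mark per cell cannot be told apart.

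H3K27ac is the acetylation of lysine 27 on histone H3, placed by the acetyltransferases CBP and p300 at active promoters and enhancers. When myoblasts leave the cell cycle, MyoD, myogenin and MEF2 factors bind muscle enhancers, where the mark is deposited. Enhancers of genes used in fusion and in the contractile apparatus are acquired during this course, and long runs of acetylated chromatin often surround highly expressed muscle genes. All positions below are on mouse build mm9 and count from 1. An annotation and a genome of that build were not used here, so the regions were not linked to genes, no base sequence is shown, and the cell type was not checked at marker genes.

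The 72 h only regions were numerous, with a median width and enrichment below those of the other classes of regions with a 72 h peak. They were 23.9% of all merged regions and 31.6% of the 85534 regions with a 72 h peak. Each consisted of a single peak, whereas the other classes with a 72 h peak join overlapping peaks of several lists. Widths are those of merged regions, so this joining adds to the width of those classes. Together they covered 7.82 Mb, or 12.3% of the length under 72 h peaks, although they made up 27.8% of the 97144 peaks of that list. Their width had a median of 233 bp and ran up to 2599 bp. The median was 212 bp for regions called at 36 h only, 212 bp for those called in proliferation only and 1119 bp for those of all 3 stages. At the shortest called width of 147 bp lay 2388 of them (8.84%), and 270 (1.0%) reached 1000 bp.

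The strength of each region was read as the number of DNA fragments over its summit, recovered from the deposited fold enrichment and −log10 p. The lowest 72 h only region had 8 summit fragments, the median 15 and the highest 86. Among all 72 h peaks the median was 20 fragments, and among those in regions of all 3 stages it was 33. The fold enrichment of the 72 h only regions had a median of 4.58 and reached 16.7, and their −log10 q had a median of 3.998. These strengths stem from the same list as the rule and only describe the members. Wider regions were stronger: the median was 12 fragments at 147 bp and 29 fragments from 1000 bp.

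The share of 72 h peaks that were 72 h only fell with peak strength. Of 72 h peaks with up to 12 summit fragments, 62.6% were 72 h only (95% Wilson interval 61.7 to 63.4%). The share was 44.2% (43.3 to 45.2%) at 15 to 16 fragments, 20.4% (19.7 to 21.1%) at 21 to 25 fragments and 4.72% (4.31 to 5.16%) at 31 to 40 fragments. Of 8032 peaks with 61 or more fragments, 2 were 72 h only. Of the members, 26.4% had at most 12 fragments and 21.8% had 13 or 14. The intervals cover counting error only. They count each peak as independent, although 72 h only regions often lay next to each other.

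**Figure D1:**
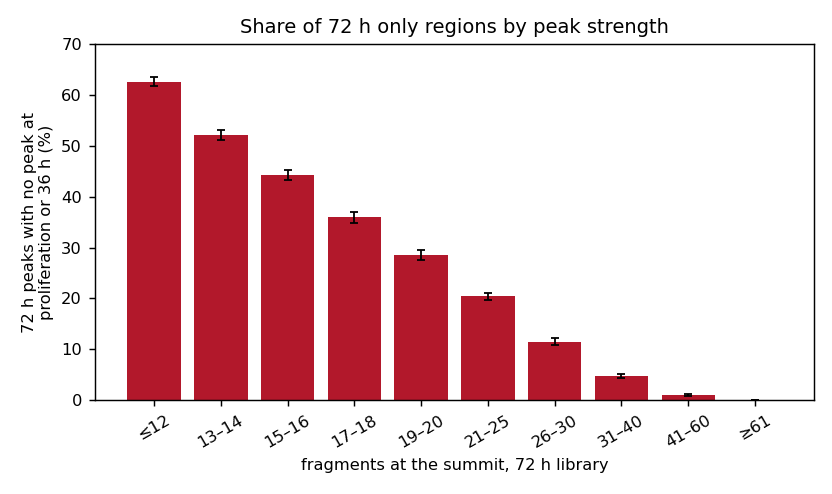
Share of 72 h peaks with no overlapping peak in proliferation or at 36 h (y axis, percent) in bins of summit fragments in the 72 h library (x axis), with 95% Wilson intervals as error bars. The bars fall from 62.6% at up to 12 fragments to 4.72% at 31 to 40 fragments.

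The chance that a peak of the strength of the 72 h only regions would be called in the other 2 libraries depended on the local background taken there. A peak needed 9 fragments for a call at the genome background of the proliferation or the 36 h library. It needed 18 fragments in proliferation and 15 at 36 h where the local background, read as the fragments of the input, was at the 95% quantile of that library's peaks. With the signal scaled for depth and for the ratio at regions of all 3 stages, the median 72 h only region would give 11.1 fragments in proliferation and 13.5 at 36 h. At the 95% background its median chance of a call was 3.35% in proliferation and 37.5% at 36 h. At the median background of each library's peaks it was 42.7% in proliferation and 92.0% at 36 h, and at the genome background 77.3% in proliferation and 92.0% at 36 h. The expected number held the genome background alone in each case, while the number needed rose with the local background. The chances at the median and 95% backgrounds are too low in this respect. A summit is the highest point of its peak, which by contrast inflates the expected number. Calls were rarer than this estimate at the median background. Of 72 h peaks with a chance of 90 to 99%, 51.5% lay in regions called at 36 h. For proliferation it was 45.7%. From a chance of 99% the shares were 86.9% at 36 h and 70.9% in proliferation. The reason for the shortfall was not tested.

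How many were strong enough to expect a call elsewhere by this estimate varied in the same way. Because the expected number held the genome background alone, the counts below are too low in this respect. With a chance of a call of at least 99% at the 95% background, 993 of the 72 h only regions (3.68%, interval 3.46 to 3.91%) were detectable at 36 h, compared with 32.6% of all 72 h peaks. At the median background of the 36 h peaks 5273 (19.5%) were, compared with 53.8% of all 72 h peaks. In both other libraries 140 (0.519%, 0.440 to 0.612%) were detectable at the 95% background, compared with 19.9% of all 72 h peaks. At the median background 855 (3.17%) were, compared with 31.5% of all 72 h peaks. Of the 140, 86 had no peak of either other stage within 1 kb. The 86 had 38 to 77 summit fragments with a median of 41.5, and a median width of 915.5 bp. Their median distance to the nearest peak of another stage was 8.80 kb, and 7 of them lay more than 50 kb away.

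The strongest of these 86 by fold lay on chromosome 3 from 57384177 to 57385453. It had 56 summit fragments and a fold of 16.7 at 72 h, above 93.0% of that list, while 43.3 fragments were expected in proliferation and 52.95 at 36 h after the same scaling for depth and for the ratio at regions of all 3 stages. Its closest neighbours among the calls of proliferation and 36 h were 3.33 and 2.67 kb away. A region on chromosome 15 from 77810297 to 77810976 and another on chromosome 4 from 149451745 to 149453166 each had 50 fragments and a fold of 16.2. Around the chromosome 4 region the closest proliferation call was 16.1 kb away and the closest 36 h call 1.63 kb away. The other 2 of the 5 highest were on chromosome 18 from 16576851 to 16577715, with 49 fragments, and on chromosome 11 from 60798269 to 60799746, with 48 fragments.

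By −log10 q the first 2 regions stood beside 36 h peaks. The region on chromosome 15 from 81769489 to 81770760 had 86 summit fragments and a −log10 q of 51.6, above 95.6% of the 72 h list. A 36 h peak lay at 0.169 kb and a proliferation peak at 6.01 kb. On chromosome 6 from 84185611 to 84186983, a region with 58 fragments lay 0.170 kb from a 36 h peak and 29.1 kb from a proliferation peak. The next 3 by −log10 q were the regions on chromosomes 3, 15 (from 77810297) and 18 given above.

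The widest 72 h only regions reached between 2017 and 2599 bp and had 30 to 42 summit fragments. The widest lay on chromosome 19 from 4463873 to 4466471, with 34 fragments and no proliferation or 36 h peak within 7.90 kb. The next were on chromosome 12 from 113263411 to 113265708, with 40 fragments, and on chromosome 10 from 94587393 to 94589674, with 30 fragments. On chromosome 8 from 86842822 to 86844894, a region with 38 fragments had its closest proliferation call at 48.6 kb and its closest 36 h call at 47.9 kb. The last of the 5, on chromosome 3 from 85758758 to 85760774, had 42 fragments and a 36 h peak at 0.891 kb.

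Most 72 h only regions lay close to chromatin that was acetylated at another stage. Their median distance to the nearest peak of either other stage was 1.23 kb. Within 5 kb of such a peak lay 67.8% of them (67.2 to 68.3%), and within 1 kb 47.5% (46.9 to 48.1%). The nearby peaks were more often of 36 h than of proliferation: 64.1% had a 36 h peak and 37.3% a proliferation peak within 5 kb, from lists of 89717 and 57101 peaks. The regions called at 36 h only lay nearer to other-stage peaks, with 76.8% (76.2 to 77.5%) within 5 kb. The corresponding share of regions called in proliferation only was 75.2% (74.2 to 76.1%). The other stages offered each class a different number of peaks.

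**Figure D2:**
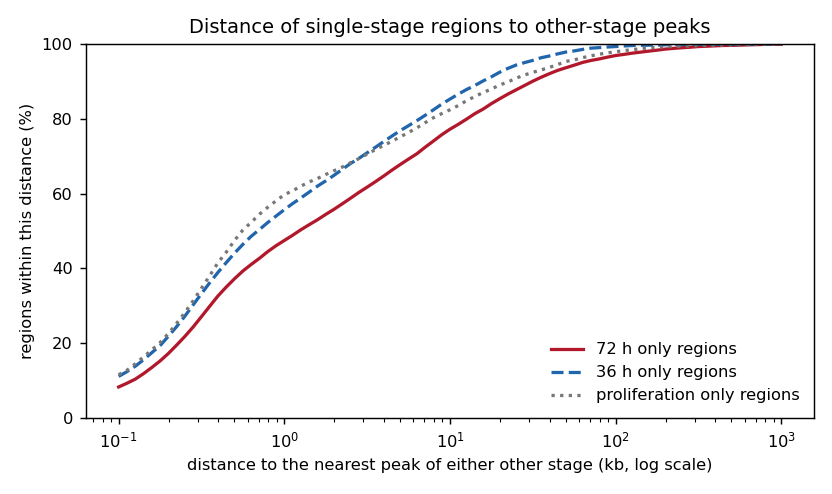
Percent of regions (y axis) that lay within a given distance in kb (x axis, log scale) of the nearest peak of either other stage, for regions called at 72 h only, at 36 h only and in proliferation only. The curve of the 72 h only regions runs lowest, with 67.8% within 5 kb compared with 76.8% and 75.2%.

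At the other end, 72 h only regions reached farther into chromatin with no other peak. More than 50 kb from any peak of the other stages lay 1716 of them (6.36%, 6.07 to 6.65%), compared with 2.16% (1.96 to 2.38%) of 36 h only and 4.65% (4.20 to 5.15%) of proliferation only regions. More than 100 kb away lay 833 (3.09%). The median was 15 summit fragments in each of 5 bins of distance, while the share detectable at 36 h was 2.98% under 1 kb, 5.46% at 20 to 100 kb and 3.24% beyond 100 kb. The share at the genome background was 45.3% under 1 kb and 64.3% beyond 100 kb. The part of the background in these shares was not tested.

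The 5 remote regions with the most summit fragments had 42 to 54. The first lay on chromosome 6 from 11961369 to 11962290, with 54 fragments, a proliferation peak at 84.6 kb and a 36 h peak at 84.7 kb. The chromosome 18 region given above was the next, with its closest 36 h call at 173 kb. On chromosome 10 from 28370769 to 28371828, a region with 43 fragments lay 346 kb from a proliferation peak and 401 kb from a 36 h peak. A region on chromosome 9 from 56559555 to 56560524 also had 43 fragments, and one on chromosome 2 from 31723108 to 31723514 had 42.

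The 72 h only regions often lay next to each other. For 45.8% the nearest merged region was another 72 h only region, which were 23.9% of all regions. The nearest was a region of 36 h and 72 h for 23.9% and a region of all 3 stages for 16.4%, where these were 22.3% and 25.6% of all regions. A 36 h only region was nearest for 7.20% and a proliferation only region for 2.65%. Regions called at 36 h only were also nearest to their own kind more often than their number, at 35.7% compared with 15.9% of all regions, and so were regions called in proliferation only, at 32.2% compared with 6.70%. The median gap from a 72 h only region to the next region was 246 bp, and 78.2% had a region within 1 kb.

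Where the next region lay within 1 kb on a single side, the summit of the 72 h only region leaned towards it. It lay in the nearer part of the peak, between its middle and that side, in 54.2% (53.4 to 55.0%) of 15269 such regions. With no region within 1 kb the share was 49.9% (48.6 to 51.2%) of 5891. The same lean was measured for 36 h only regions, at 52.6% (51.6 to 53.6%), and for proliferation only regions, at 54.8% (53.4 to 56.3%).

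Some 72 h only regions formed islands with no peak of the other stages nearby. When all merged regions were joined across gaps of up to 10 kb, 78.6% (78.2 to 79.1%) of the 72 h only regions shared a cluster with regions of other stages, and 52.9% with a region of all 3 stages. The remaining 5765 formed 3542 clusters of their own kind. Of these clusters 2143 held 1 region, 926 held 2 and 473 held 3 or more, with up to 16. By the same rule, 36 h only regions formed 1753 clusters of their own, of which 143 held 3 or more, with up to 9. Clusters of 3 or more were 13.4% of the 72 h only clusters and 8.16% of the 36 h only clusters. For proliferation only clusters the share was 7.29%. The order follows the size of the classes, with 26999, 17909 and 7568 regions. The part of class size in these shares was not tested.

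The 5 islands with the most members were chosen after their values had been seen. The first held 16 regions on chromosome 14 from 70346890 to 70366905. These had 12 to 50 summit fragments, and the nearest proliferation and 36 h peaks were 35.3 and 50.05 kb away. On chromosome 8 from 121679600 to 121695171, 15 regions lay within 15.6 kb, with 10 to 27 fragments, a proliferation peak at 173 kb and a 36 h peak at 106 kb. The third island held 11 regions on chromosome 4 from 41491341 to 41522722, with 11 to 42 fragments. An island of 10 regions lay on chromosome 19 from 36752284 to 36773329, with the nearest 36 h peak at 123 kb. The last of the 5 held 9 regions on chromosome 1 from 187662112 to 187673194, with 9 to 28 fragments. Between 1 and 4 regions of each island were detectable at 36 h by the 99% rule.

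The stretches of up to 100 kb with the most 72 h only regions lay among peaks of 36 h, with few or no peaks of proliferation. Choosing the stretches by these regions in itself favours length under 72 h peaks over that under peaks of the other stages. On chromosome 7 from 56580674 to 56658794, 37 of 53 merged regions were 72 h only and the other 16 had peaks at 36 h and 72 h. There 0 kb lay under proliferation peaks, 12.98 kb under 36 h peaks and 34.4 kb under 72 h peaks. On chromosome 2 from 76942321 to 77025816, 32 of 52 regions were 72 h only, and 1.25 kb, 17.98 kb and 32.0 kb lay under peaks in proliferation, at 36 h and at 72 h. On chromosome 19 from 24709834 to 24806781, 26 of 45 regions were 72 h only, with 0.716 kb under proliferation, 13.2 kb under 36 h and 32.2 kb under 72 h peaks. The strongest 72 h only region had 36, 27 and 28 summit fragments in the stretches on chromosomes 7, 2 and 19, and the strongest 36 h peak there 45, 93 and 77.

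**Figure D3:**
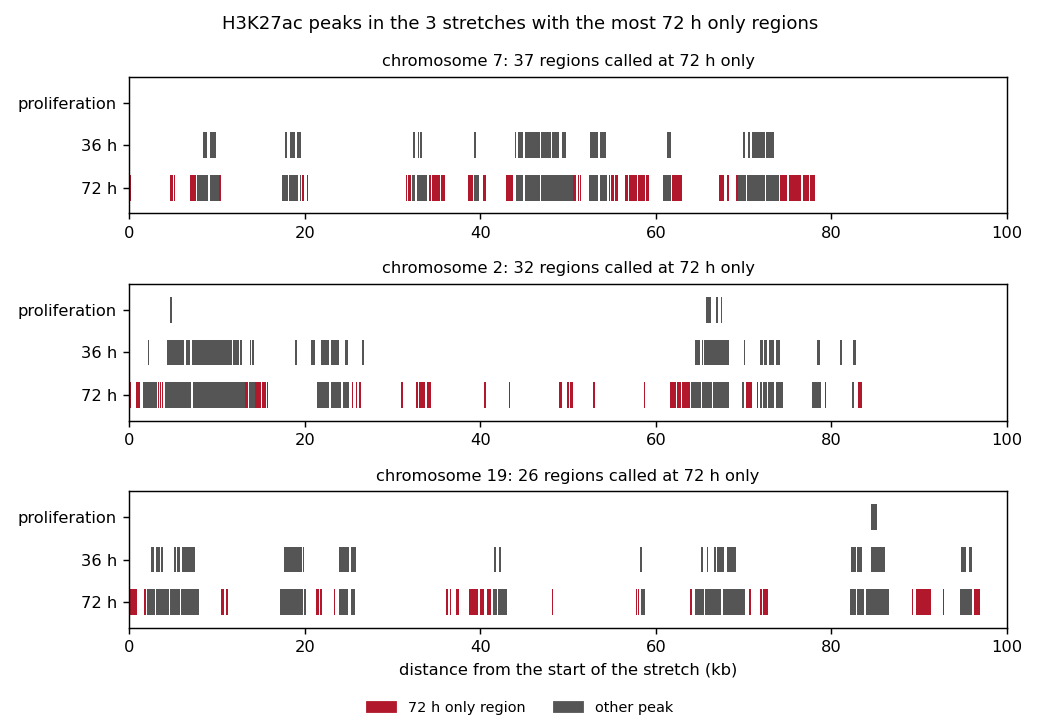
H3K27ac peaks of proliferation, 36 h and 72 h (rows) along the 3 stretches of up to 100 kb with the most 72 h only regions, as distance in kb from the start of each stretch (x axis). Red boxes are the 37, 32 and 26 regions called at 72 h only and grey boxes are all other peaks; no proliferation peak lies in the first stretch.

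The signal of the regions next to the members was also examined. It is not independent of the rule. The classes of these regions stem from the same 3 peak lists, and their signal from the same libraries. Choosing members by a call at 72 h and none at 36 h can by itself favour a higher 72 h signal close by. For each 72 h only region the nearest region with peaks at all 3 stages was taken, and each such neighbour was counted once, at its shortest gap. Signal was the number of fragments above background at the strongest summit, divided by the relative ChIP depth of the library. Over all 28908 regions of 3 stages the median signal was 26.5 in proliferation, 26.9 at 36 h and 32.2 at 72 h. At 4064 neighbours within 1 kb of a 72 h only region it was 23.9 in proliferation, 25.2 at 36 h and 35.5 at 72 h. These neighbours lay below the common level in proliferation and at 36 h and above it at 72 h.

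The ratio of 72 h to 36 h signal was highest at the closest neighbours and fell with distance. The log2 ratio of 72 h over 36 h signal had a median of 0.37 (quartiles 0.10 and 0.72) within 1 kb of a 72 h only region, compared with 0.20 (−0.08 and 0.52) over all regions of 3 stages. It was 0.28 at 1 to 5 kb, 0.21 at 5 to 20 kb and 0.18 at 20 to 100 kb. Signal was higher at 72 h in 82.2% (81.0 to 83.4%) of the neighbours within 1 kb, against 68.9% of all such regions. Beside 36 h only regions, the median was 0.06 within 1 kb and 55.8% (54.3 to 57.4%) were higher at 72 h. Beside proliferation only regions, whose neighbours had a median signal of 30.03 in proliferation, 17.7 at 36 h and 23.2 at 72 h, it was 0.32, with 75.3% higher at 72 h. The quartile ranges of all these sets overlap, and a high ratio of 72 h to 36 h was thus also found at neighbours of another class. Peaks also covered more of the neighbours at 72 h, with a median of 1.12 times their length at 36 h within 1 kb of a 72 h only region and 0.957 times beside 36 h only regions.

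**Figure D4:**
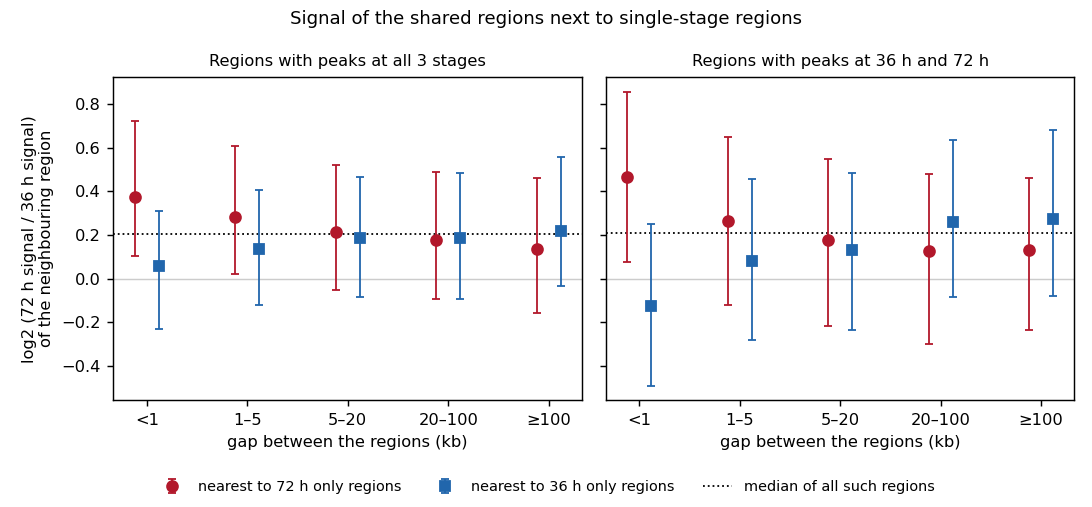
Median log2 ratio of 72 h over 36 h signal (y axis) of the regions nearest to 72 h only and to 36 h only regions, by the gap between them in kb (x axis), for neighbours with peaks at all 3 stages (left) and at 36 h and 72 h (right). Bars span the quartiles and the dotted lines mark the medians of all such regions, 0.20 and 0.21; the medians within 1 kb are 0.37 and 0.46 beside 72 h only regions, against 0.06 and −0.13 beside 36 h only regions.

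The same was measured at neighbours that first had a peak at 36 h. Over all 25164 regions with peaks at 36 h and 72 h, the median log2 ratio was 0.21 and 64.3% were higher at 72 h. Within 1 kb of a 72 h only region the median of 5907 such neighbours was 0.46 (quartiles 0.08 and 0.86), and 79.7% (78.6 to 80.7%) were higher at 72 h. Beside 36 h only regions it was −0.13, with 41.1% (39.6 to 42.5%) higher at 72 h. Beyond 20 kb the order turned, with 0.12 near 72 h only and 0.26 near 36 h only regions at 20 to 100 kb. Peaks covered 1.33 times as much of these neighbours at 72 h as at 36 h within 1 kb of a 72 h only region, compared with 1.10 times over all. Members and neighbours were measured in the same libraries.

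The 72 h only regions were unevenly spread over the chromosomes. They made up 32.8% (31.4 to 34.2%) of the 72 h peaks of chromosome 13 and 31.4% (29.5 to 33.4%) of those of chromosome X. The shares were lowest on chromosomes 15, 17 and 11, at 23.9% (22.7 to 25.1%), 23.9% (22.7 to 25.3%) and 24.0%. Chromosome 15 alone among the 20 placed chromosomes had fewer peaks at 72 h than at 36 h, with a ratio of 0.985, compared with 1.20 for chromosome 13. Across the 20 placed chromosomes the share ran against the median local background at regions of all 3 stages in the same library (Pearson's r −0.71, Spearman's rho −0.77), with the highest background, 2.06 input fragments, on chromosome 15. The points share 1 library and 1 input. Among 72 h peaks with a −log10 q of at least 5, a count added after the shares had been seen, rho was −0.22 and r −0.26. The share of 36 h peaks that were 36 h only ran with the same 72 h background instead, with rho 0.69 and r 0.77.

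**Figure D5:**
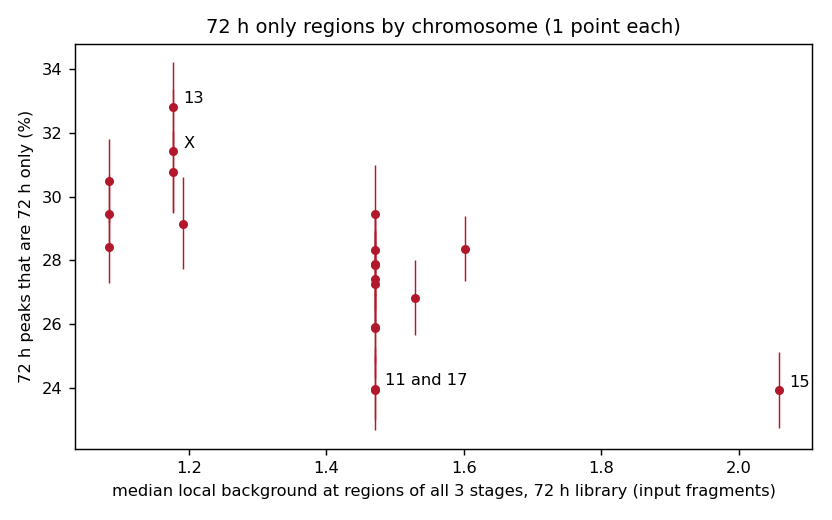
Percent of the 72 h peaks of each placed chromosome that were 72 h only (y axis, with 95% Wilson intervals) against the median local background of that chromosome at regions of all 3 stages in the 72 h library (x axis, input fragments). Chromosome 13 is highest at 32.8% and chromosomes 15, 17 and 11 are lowest, at 23.9 to 24.0%.

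The local background itself was low at the 72 h only regions. It stood at the genome background of 1.08 input fragments at 48.98% of them, compared with 37.5% of all 72 h peaks and 29.1% of those in regions of all 3 stages. A background of 2 or more input fragments was found at 21.6%, compared with 29.9% of all 72 h peaks. The background enters the peak calls that the rule used, and 72 h peaks of like strength were not compared. At the border of the rule, 257 members lay less than 10 bp from a peak of another stage and 250 72 h peaks overlapped such a peak by at most 10 bp. The median was 14 summit fragments and a fold of 4.26 on both sides.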

How the data were processed

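The authors deposited 1 narrowPeak list for each of 3 H3K27ac libraries; the 3 input libraries had no file among those used here. Per the submitters' processing notes, BWA, MACS2, deepTools and build mm9 were used; the sources used here do not give versions or settings. Per the narrowPeak column order, the deposited values are a fold enrichment (ratio of pileup over background, 1 added to each), a −log10 p and −log10 q, and a deposited score that was not used. Read totals were not given. For each library, fragments were recovered as whole numbers that, multiplied by a common factor (0.673 for proliferation, 0.698 for 36 h and 0.657 for 72 h), solve the deposited fold and −log10 p of 100% of peaks, within a relative tolerance of 0.0003; the procedure was also tested on simulated peaks. The genome background was 1.01 input fragments in proliferation, 1.25 at 36 h and 1.08 at 72 h. Divided by the factor of its library and set to 1 in proliferation, it gave a relative ChIP depth of 1.20 for 36 h and 1.10 for 72 h. This assumes the same genome size in each run and the input as control.

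Lists were compared by overlap of at least 1 bp. With 1 library per stage no p-value between stages was computed. Intervals are 95% Wilson intervals and cover counting error only, with each peak or region counted as independent. Python 3.11.15, numpy 2.4.6, scipy 1.17.1 and pandas 2.3.3 were used. The members and all lists and measures were chosen with earlier results of these data known. Named were the 5 members highest in −log10 q, the 5 widest, the 5 with the highest fold among those detectable at both other stages and clear of their peaks by 1 kb, the 5 with most fragments beyond 50 kb, the 3 stretches of up to 100 kb with most members, and the border of the rule. Shares at promoters, motifs and gene lists were planned and not run, because the reference tables are on another build.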

Additional observations from a re-analysis of the deposited data

How the results depend on the processing

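The number of 72 h only regions depended on the setting. Against 26999 as reported, it was 30491 when sharing required an overlap of 50% of the shorter peak, 26069 after thinning to the depth of proliferation, and 25885 with 72 h signal, depth and input set to those of 36 h, a setting added after seeing the data. It was 14181 with no other-stage peak allowed within 1 kb, 14764 with a fold of 5 or more and 13154 with −log10 q of 5 or more in all lists. With lists of equal number it was 11396, with merging across gaps of up to 1 kb 8820, and with −log10 q of 5 or more asked of the 72 h list only 8197. The share near an other-stage peak was 67.8% within 5 kb, 47.5% within 1 kb, 77.2% within 10 kb and 64.2% for members with −log10 q of 5 or more. The 140 members detectable at both other stages became 46 with a miss in at most 1 of 1000. They became 855 with the background at its median and 333 without scaling the signal. The expected fragments behind the 140 held the genome background alone. The median width of 233 bp became 304 bp after merging across 1 kb and 356 bp with −log10 q of 5 or more. The median fold of 4.58 became 4.67 after that merging and stayed at 4.58 for the mean fold of the merged peaks. The share in mixed clusters was 78.6% with gaps of up to 10 kb and 69.8% with gaps of up to 5 kb. The causes of these shifts were not tested. No paired analysis was possible because each stage had 1 library. Promoter, motif and gene list alternatives were not run.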

Other observations

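On 9 unplaced sequences of the build, 29 of 175 peaks at 72 h were 72 h only.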
